A study of Homo sapiens with 4 samples.

Results

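The genes described here are 6 connexin genes (GJA1, GJA3, GJA4, GJB2, GJB5 and GJC1) and the pannexin gene PANX1, 7 of the 19741 genes with a probe set of their own on the array. They were selected on the measured signals of these same arrays, so their values are given as a description with no test. Every probe set annotated to 1 of these genes alone was used, which gave 15 of the 54675 probe sets. Total RNA came from 2 human lung adenocarcinoma lines, CL1-0 and its more invasive subline CL1-5, each as a stably transduced population kept in puromycin. The 4 groups were CL1-5 with a control shRNA, CL1-5 with an shRNA against the histone methyltransferase G9a, CL1-0 with a control vector and CL1-0 with HA-tagged G9a. Each group was 1 Affymetrix array with no replicate, each G9a perturbation was 1 construct, and the labels do not name the promoters of the constructs. All 4 populations had gone through transduction and selection, and no untransduced cells were profiled among them.

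Connexins are channel proteins of the plasma membrane. A ring of connexins forms a hemichannel, and hemichannels of neighbouring cells dock into a gap junction through which ions and small metabolites pass. Pannexins share the membrane topology of connexins but form channels in a single membrane, and PANX1 is known for releasing ATP from cells. In lung epithelium, GJA1 product Cx43 is among the connexins that couple alveolar cells, and loss of gap junction coupling is a long-described feature of many carcinomas.

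Signals are MAS5 intensities on a linear scale. A ratio is a difference of log2 signals after raising signals below 3.35, the 25th percentile of all values and here called the floor. It was read only where the brighter array reached 12.5, the median of all values and here called the filter. Where the dimmer array lay below the filter, a difference past 2-fold is given as a lower bound, the brighter signal as deposited over the filter. Such bounds, unlike the ratios, are not relative to the median gene. Ratios are given relative to the median gene that passed this filter, whose own log2 ratio was 0.42 in the knockdown comparison, -0.08 in the HA-G9a comparison and -0.01 between the control arrays of the lines. As a technical yardstick, log2 ratios of probe sets of 1 gene had a pooled SD of 0.54, 0.51 and 0.65 in those 3 comparisons. Among probe sets whose brighter array reached 84.2, the 75th percentile of all values, that SD was smaller, at 0.30, 0.25 and 0.41. EHMT2, which encodes G9a, read 376 and 28.1 on the CL1-5 arrays and 419.7 and 862 on the CL1-0 arrays by its bright probe set, control first, so the arrays followed their labels.

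The plot of member signals shows the main division among the genes. GJA1 was bright in CL1-0 and at background level in CL1-5, GJC1 and PANX1 were above the filter on all 4 arrays by each of their 4 probe sets, GJA3 was above it by 1 of its 2 probe sets, and GJA4, GJB2 and GJB5 were below it on all 4 arrays.

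**Figure D1:**
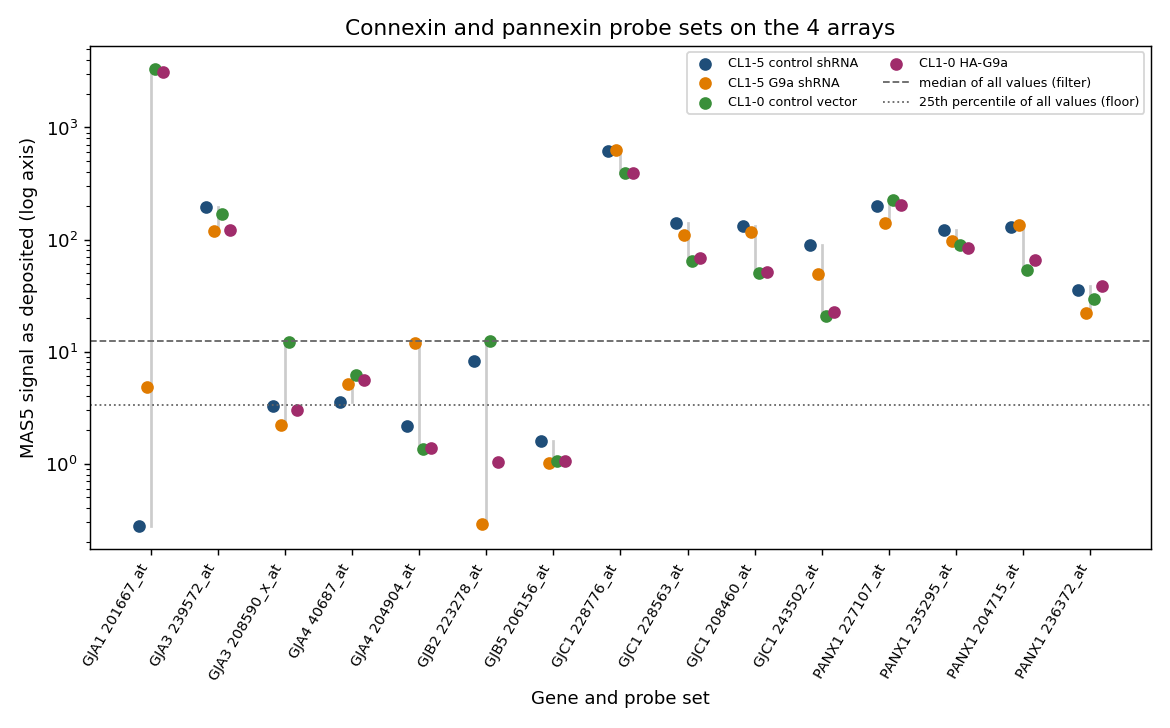
MAS5 signal as deposited (log axis) of the 15 probe sets of the 7 genes, with 1 point per array and a grey line from the lowest to the highest array; the dashed line is the filter at 12.5 and the dotted line the floor at 3.35. GJA1 read at least 3132 on both CL1-0 arrays and at most 4.81 on both CL1-5 arrays, whereas the GJC1 and PANX1 probe sets lay within 4.35-fold of their own lowest array.

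GJA1 encodes connexin Cx43, the most widely expressed human connexin. Its single probe set (201667_at) read 3338 on the CL1-0 vector array and 3132 on the CL1-0 HA-G9a array. In CL1-5 it read 0.276 with the control shRNA and 4.81 with the G9a shRNA. Both CL1-0 arrays were thus high, both CL1-5 arrays lay under the filter, and the lines did not overlap. Because the CL1-5 signals were below the filter, the difference has only a lower bound: with the dim side set to the filter, the CL1-0 vector array was at least 267-fold brighter than the CL1-5 control array, and the CL1-0 HA-G9a array at least 251-fold brighter than the CL1-5 G9a shRNA array. The relative log2 ratio of -9.94 between the control arrays was computed against the floor and is no measured size. In a bulk sample, fewer cells with GJA1 RNA and less GJA1 RNA per cell cannot be told apart.

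The G9a perturbations left GJA1 on its own side of this division. With HA-G9a in CL1-0 its relative log2 ratio was -0.01, ranging from -0.17 to 0.02 over the scalings tried and so without a settled sign. In CL1-5 no ratio was read, since both the 0.276 and the 4.81 lay below the filter; the knockdown value was also far below either CL1-0 value. Among the 3716 genes at or below the floor in the CL1-5 control, GJA1 had the highest signal with the CL1-0 vector, and 37 of those genes reached 84.2, the 75th percentile of all values. Of all genes, 50 (0.253%) were at or above that level on both CL1-0 arrays and below the filter on both CL1-5 arrays, GJA1 among them, against 33 (0.167%) with the reverse pattern, which held none of the 7 genes.

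The 250 bases upstream of the annotated GJA1 start are shown because GJA1 differed most between the lines, and those of GJA3 and PANX1 because both genes read above the filter in both lines. The sequences are RefSeq's, build GRCh38.p14, 5′ to 3′ on the strand of the gene, with CpG dinucleotides in capitals. GJA1 lies at chr6:121435396-121435645 (plus strand), GJA3 at chr13:20161053-20161302 (minus strand) and PANX1 at chr11:94128591-94128840 (plus strand).
GJA1: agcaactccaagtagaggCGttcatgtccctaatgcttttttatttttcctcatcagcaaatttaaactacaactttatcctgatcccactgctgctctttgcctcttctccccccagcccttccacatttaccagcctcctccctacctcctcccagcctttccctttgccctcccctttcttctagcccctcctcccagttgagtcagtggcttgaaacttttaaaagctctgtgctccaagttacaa
GJA3: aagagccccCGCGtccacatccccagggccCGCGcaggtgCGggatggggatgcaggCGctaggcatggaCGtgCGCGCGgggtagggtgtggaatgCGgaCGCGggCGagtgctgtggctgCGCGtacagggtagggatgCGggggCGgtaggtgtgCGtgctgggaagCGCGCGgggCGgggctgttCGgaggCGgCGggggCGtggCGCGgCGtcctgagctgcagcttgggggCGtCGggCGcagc
PANX1: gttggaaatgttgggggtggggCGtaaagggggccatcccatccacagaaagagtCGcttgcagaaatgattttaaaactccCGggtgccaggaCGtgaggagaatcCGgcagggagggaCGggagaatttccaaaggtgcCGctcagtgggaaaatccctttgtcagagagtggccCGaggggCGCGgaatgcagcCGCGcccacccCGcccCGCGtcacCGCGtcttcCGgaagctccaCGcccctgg

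A window of this kind was found for 4 of the 7 genes, GJB2 being the remaining one. The GJA1 window held 1 CpG, the GJA3 window 33, the GJB2 window 25 and the PANX1 window 19, against a median of 11 over 35116 windows of the same length. The ratio of observed to expected CpG was 0.0947 for GJA1, 0.801 for PANX1, 0.869 for GJB2 and 1.065 for GJA3, and 10.1% of all windows had a lower ratio than GJA1. GC content was 48% for GJA1, against 62%, 70% and 74.8% for PANX1, GJB2 and GJA3. GJA1 thus stood apart from the other 3 windows as CpG-poor. The motif TGANTCA, bound by AP-1 factors, was searched on both strands and matched once in the GJA1 window, beginning 48 bases upstream of the start, and in 6.57% of all windows. It had no match in the other 3 windows. GGGCGG, the GC box, was searched on both strands as well; it matched in the GJA3, GJB2 and PANX1 windows but not in that of GJA1, and in 42.6% of all windows. CACCTG, an E-box, and TATAAA were likewise searched on both strands. CACCTG matched only in the GJA3 window of these 4, as CAGGTG on the printed strand, and in 17.5% of all windows. TATAAA matched in none of the 4 and in 10.7% of all. These matches overlapped no other motif searched and are letters in a window, not measured binding.

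**Figure D2:**
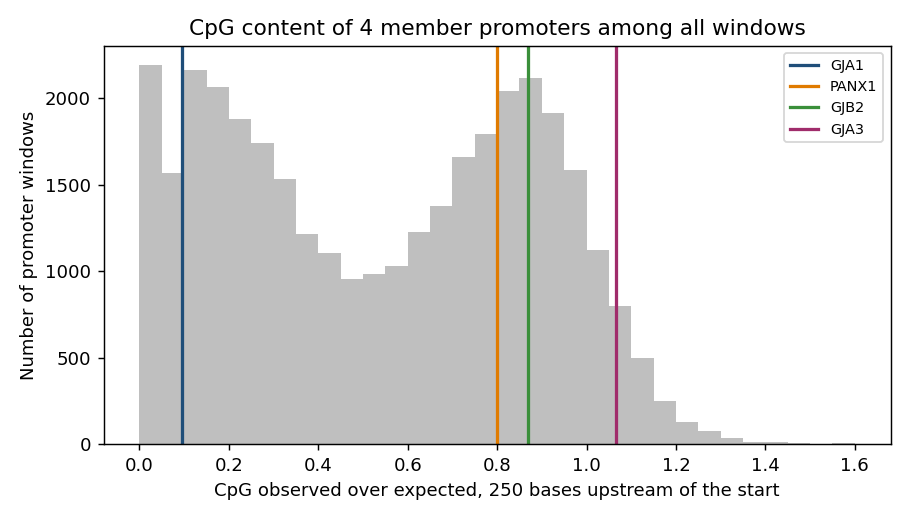
Ratio of observed to expected CpG in the 250 bases upstream of the start (horizontal axis) for 35116 RefSeq promoter windows (grey bars, number per bin of 0.05), with the 4 members that had a window as coloured lines. GJA1 at 0.0947 falls in the CpG-poor part of the distribution, and PANX1, GJB2 and GJA3 at 0.801 to 1.065 in its CpG-rich part.

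GJC1 encodes connexin Cx45, a connexin of low conductance channels best known from the heart and from smooth muscle. Its brightest probe set (228776_at) read 613 in the CL1-5 control, 625 after the knockdown, 396 with the vector and 396 with HA-G9a. The other 3 probe sets had the same order of the lines. Probe set 228563_at read 139 and 109.6 in CL1-5 and 63.9 and 68.2 in CL1-0. Probe set 208460_at read 133 and 117 against 50.04 and 51.4, and 243502_at 89.5 and 48.9 against 20.6 and 22.6. By every probe set the CL1-5 arrays were both above the CL1-0 arrays as deposited. How many of all genes had this order was not counted, so nothing is read from the order alone. The knockdown array was also brighter in general, with its median gene at a log2 ratio of 0.42 to the control. Of 8884 genes reaching 84.2 on any array, 2138 had a log2 profile within a Euclidean distance of 0.5 of that of GJC1.

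The size of the GJC1 line difference varied with the probe set. Between the control arrays the brightest probe set had a relative log2 ratio of 0.64, under 2-fold. That was just inside the yardstick of 0.65 but outside the 0.41 of probe sets reaching 84.2, as this one did. The other 3 had ratios of 1.14, 1.43 and 2.14, all past 2-fold, and the mean over the 4 was 1.34 ± 0.62 (SD between probe sets, n = 4). Between the perturbed arrays the same probe sets gave 0.17 to 0.70 relative to the median gene, none past 2-fold. Probe sets of a gene share the array and are no replicates of the cells.

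With HA-G9a the 4 GJC1 probe sets had relative log2 ratios from 0.08 to 0.22, all within the yardstick of 0.51, and 2 of the 4 changed sign under another scaling. After the knockdown they were all below the median gene, at -0.39, -0.60, -0.77 and -1.29. The brightest was level as deposited (log2 ratio 0.03), so its direction depends on whether the ratio is taken relative to the median gene; the other 3 were lower in the knockdown under each scaling tried.

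PANX1 encodes the ATP-releasing channel pannexin, and its 4 probe sets disagreed on the lines. The brightest (227107_at) read 199.6 in the CL1-5 control, 141 after the knockdown, 227 with the vector and 203 with HA-G9a, so the knockdown array was the lowest. Probe set 204715_at read 130.2 and 134 in CL1-5 and 53.6 and 66.2 in CL1-0. Probe set 235295_at read 122, 96.6, 88.8 and 83.6 in the same order, and 236372_at 35.8, 22.1, 29.5 and 38.7.

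Between the control arrays the relative log2 ratios of these PANX1 probe sets were -0.17, 1.30, 0.47 and 0.29, a mean of 0.47 ± 0.61 (SD between probe sets, n = 4), so the spread exceeded the mean. After the knockdown all 4 were below the median gene, at -0.92, -0.38, -0.75 and -1.12, and 1 passed 2-fold. As deposited, 204715_at had a log2 ratio of 0.04 and the other 3 lay between -0.70 and -0.33, so 3 of the 4 kept their direction under each scaling tried. With HA-G9a the 4 ratios ran from -0.08 to 0.48, none outside the yardstick.

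GJA3 encodes connexin Cx46, a connexin of the eye lens. Its bright probe set (239572_at) read 193 in the CL1-5 control, 119.7 after the knockdown, 169 with the vector and 122 with HA-G9a. As deposited, both perturbed arrays were below both control arrays by this probe set. How many of all genes had this order was not counted, so nothing is read from it. Of 8884 genes reaching 84.2 on any array, 275 had a log2 profile within a Euclidean distance of 0.5 of that of GJA3. The relative log2 ratio was -1.11 after the knockdown, past 2-fold and outside the yardstick. With HA-G9a it was -0.39, within the yardstick of 0.51 but outside the 0.25 of probe sets reaching 84.2, as this one did. As deposited the knockdown ratio was -0.69 and under 2-fold. Between the control arrays of the lines the relative log2 ratio was 0.21, but it turned to -0.83 with the mean of both probe sets and to -0.52 between the perturbed arrays, so no direction between the lines is given for GJA3. The second probe set (208590_x_at, of a type that can cross-hybridise) read 3.28, 2.23, 12.1 and 3.04 and was below the filter on all 4 arrays.

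**Figure D3:**
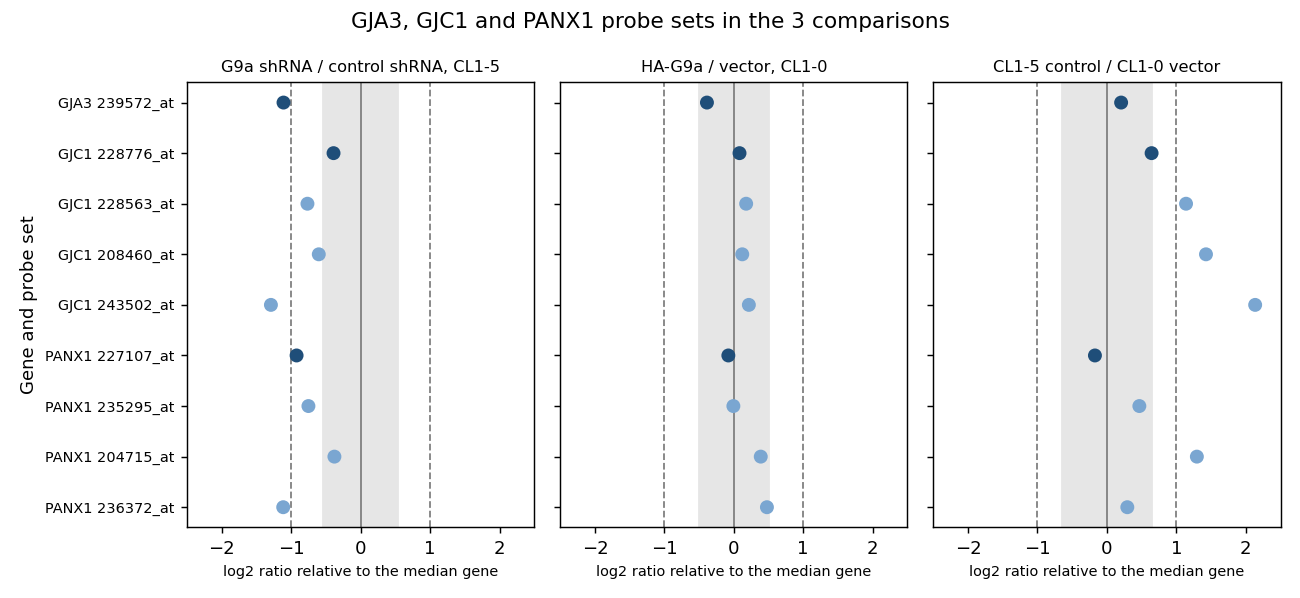
Log2 ratio relative to the median gene (horizontal axis) for the 9 probe sets of GJA3, GJC1 and PANX1 that passed the filter, in the 3 comparisons; dark points are the brightest probe set of the gene, grey bands the pooled SD among probe sets of 1 gene and dashed lines 2-fold. All 9 points lie below 0 after the knockdown, but as deposited 228776_at (0.03) and 204715_at (0.04) were above 0. With HA-G9a all 9 lie within the grey band, and 3 of 4 GJC1 points lie above 2-fold between the lines. Shares of all probe sets in these positions were not counted.

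GJB2, GJB5 and GJA4 gave no ratio. GJB2 encodes Cx26, a connexin of the cochlea and of epidermis. It read 8.21 in the CL1-5 control, 0.292 after the knockdown, 12.4 with the vector and 1.03 with HA-G9a. Both perturbed arrays were below the floor and both controls above it, and the vector value missed the filter of 12.5 narrowly. All 4 signals were below the filter and the share of all genes in this position was not counted, so nothing is read from it. GJB5, an epidermal connexin, read 1.60, 1.01, 1.07 and 1.05, below the floor on all 4 arrays. GJA4 encodes Cx37, known from endothelium and oocytes; its brighter probe set read 3.55, 5.16, 6.15 and 5.57, and its other one 2.18, 11.9, 1.35 and 1.38, where the 11.9 of the knockdown was just under the filter. At the other side of the filter, the dimmest member probe set that passed, 236372_at of PANX1, reached 38.7 on its brightest array.

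By gene, with the brightest probe set standing for each, 3 of the 7 genes passed the filter in the knockdown comparison. None was at least 2-fold higher and 1, GJA3, was at least 2-fold lower, against 8.13% higher and 7.76% lower of the 13045 genes measured (1060 and 1012 genes, or 2198 and 618 with ratios as deposited). In the HA-G9a comparison 4 passed the filter and none was past 2-fold in either direction, against 5.46% higher and 3.74% lower of 12791 genes (699 and 479 genes, or 558 and 711 with arrays scaled to one median). Between the control arrays of the lines 4 passed the filter, none was 2-fold higher in CL1-5 and 1, GJA1, was lower, against 12.6% higher and 13.2% lower of 12925 genes. With 3 or 4 genes measured, these counts are not read as departing from the shares over all genes. The CL1-5 control array and the CL1-0 vector array each enter both a within-line comparison and that between the lines.

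Of the 24 connexin and pannexin genes listed, 16 had a probe set of their own, and 9 of these were not among the 7. Those 9 were mostly dim. GJD2, a neuronal connexin, read 11.2, 18.0, 7.83 and 17.4, with both control arrays below the filter and both perturbed arrays above it. The share of all genes in this position was not counted, and nothing is read from it. GJD3 read 15.0, 17.2, 19.7 and 16.9, with ratios of -0.22, -0.14 and -0.38 in the 3 comparisons, and its other probe set read 1.21 and 21.5 in CL1-5 and 2.81 and 10.98 in CL1-0. PANX2, a pannexin of the nervous system, read 49.9 and 68.8 in CL1-5 and 34.3 and 39.3 in CL1-0, a ratio of 0.56 between the control arrays. Its other 2 probe sets were brighter with the vector, at 14.7 and 17.9, than in the CL1-5 control, at 5.02 and 7.16. Those CL1-5 signals were below the filter, so no size is given. GJA5, GJA10, GJB1, GJB6, GJD4 and PANX3 stayed below the filter on all 4 arrays.

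Endothelial markers are given beside GJA4 and GJA5, which are endothelial connexins. Of 8 endothelial markers 6 were at or above the filter in the CL1-5 control and 2 on each other array; the summed signal was 552 in the CL1-5 control, 119.6 after the knockdown, 64.9 with the vector and 55.5 with HA-G9a. In that control PECAM1 read 318, CLDN5 81.8, CDH5 62.3, ERG 35.2, TIE1 34.0 and KDR 17.2, while VWF read 1.97 and TEK 1.86. After the knockdown PECAM1 read 81.5 and ERG 13.2, and both were at least 2-fold lower. The other 4 had a knockdown signal below the filter, so they entered only through their brighter array. Their control signals were at least 6.55-fold (CLDN5), 4.99-fold (CDH5), 2.72-fold (TIE1) and 1.37-fold (KDR) brighter. All 6 counted as lower, beside 7.76% of all genes, and nothing is read from that count for the list. Of the 6, only KDR, at 3.27 after the knockdown, was raised to the floor. GJA4 and GJA5 were below the filter on all 4 arrays. The labels give a type II alveolar cell as the cellular basis; of 7 markers of that cell on the array, 3 or 4 were at or above the filter per array, with summed signals of 129 to 149. SFTPB, a surfactant protein gene, read 31.5 and 40.2 in CL1-5 and 36.5 and 22.9 in CL1-0, and ABCA3 read 16.2, 47.4, 30.2 and 21.7 in the same order. LAMP3 was above the filter only in CL1-5, at 37.4 and 31.2, and NAPSA only after the knockdown, at 18.4. NKX2-1, a lung transcription factor gene, read 29.6 and 3.87 in CL1-5 and 31.2 and 60.2 in CL1-0, so the knockdown array was the lowest. SFTPD and SLC34A2 were below the filter on all 4. Of 4 keratinocyte markers, set beside GJB2 and GJB5, at most 1 reached the filter on any array, with summed signals of 11.3 to 20.7. Their part in the connexin values was not tested.

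Genes that assemble, anchor or turn over connexins gave at most 2 genes past 2-fold in either direction of a comparison, too few to read against the shares over all genes. Of 23 such genes on the array 20 were measured. After the knockdown 1 was at least 2-fold higher and 1 lower (median -0.15), beside 8.13% and 7.76% of all genes. With HA-G9a 2 were higher and 0 lower (median -0.06), beside 5.46% and 3.74%. In CL1-5 against CL1-0, 2 were higher and 2 lower (median 0.08), beside 12.6% and 13.2%. Some of these had a dim side below the filter and entered the counts only through their brighter array. They were CDH1 after the knockdown, CDH2 with HA-G9a, and CDH2, TJP3 and CDH1 between the lines. TJP1, the ZO-1 scaffold that binds Cx43, read 1100.3 and 1409 in CL1-5 and 1240 and 1498 in CL1-0, with ratios between -0.16 and 0.36. CAV1, the caveolin that associates with Cx43, read 4078 and 4143 in CL1-5 against 836 with the vector and 1820 with HA-G9a, ratios of -0.40, 1.21 and 2.30. The cadherins, whose adhesion precedes gap junction assembly, ran apart. CDH1 read 2.36 and 77.6 in CL1-5 and 14.9 on both CL1-0 arrays. Against its CL1-5 control signal, below the filter, the knockdown array was at least 6.21-fold and the vector array at least 1.19-fold brighter as deposited. CDH2, which encodes N-cadherin, read 44.7 and 17.0 in CL1-5 and 6.98 and 21.3 in CL1-0, a ratio of -1.81 after the knockdown. Against its vector signal, which was below the filter, the CL1-5 control was at least 3.58-fold and HA-G9a at least 1.70-fold brighter. TJP3, another ZO scaffold, read 6.49 in the CL1-5 control and 27.2 with the vector, at least 2.18-fold brighter there.

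All 13 measured kinases and phosphatases of connexin tails passed the filter in each comparison, and at most 1 was past 2-fold in either direction of a comparison, again too few to read against those shares. After the knockdown 0 were higher and 1 lower (median -0.30), beside 8.13% and 7.76% of all genes. With HA-G9a 1 was higher and 0 lower (median -0.08), beside 5.46% and 3.74%, and between the lines 1 was higher and 1 lower (median -0.02), beside 12.6% and 13.2%. SRC, whose kinase phosphorylates Cx43, read 137 and 85.6 in CL1-5 and 115 and 96.3 in CL1-0, a ratio of -1.10 after the knockdown that 3 of its 4 measured probe sets shared in sign. PRKCA, which encodes protein kinase C alpha, read 399 and 829.9 in CL1-5 and 70.7 and 135 in CL1-0. Its ratio was 0.64 after the knockdown, 1.01 with HA-G9a and 2.51 between the lines. PTPN6, a phosphatase of blood cells and some epithelia, read 20.7 and 23.0 in CL1-5 and 80.6 and 79.9 in CL1-0, a ratio of -1.95 between the lines.

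Of the receptors and enzymes that receive or clear the ATP released by pannexin channels, 17 were on the array, and NT5E, P2RY2 and ADORA2B had the largest differences between the lines. NT5E, the CD73 enzyme that forms adenosine outside the cell, read 988 in the CL1-5 control, 443 after the knockdown, 9.13 with the vector and 41.4 with HA-G9a. Its ratio after the knockdown was -1.58. Since the vector signal was below the filter, the CL1-5 control was at least 79.1-fold and HA-G9a at least 3.32-fold brighter than the vector array. P2RY2, a receptor for ATP and UTP, read 81.0, 47.2, 4.95 and 17.3, a ratio of -1.20 after the knockdown. The CL1-5 control was at least 6.48-fold and HA-G9a at least 1.38-fold brighter than its vector signal, again below the filter. ADORA2B, an adenosine receptor, read 915 and 1179 in CL1-5 and 195 and 371 in CL1-0, ratios of 2.25 between the lines, -0.05 after the knockdown and 1.01 with HA-G9a. P2RX5 had a ratio of 1.60 between the lines. P2RX4 at -0.08, ENPP1 at 0.27, P2RY6 at -0.51 and ADA at -0.94 lay within 2-fold between the lines. P2RX7, the ATP-gated channel often paired with PANX1, read between 1.57 and 2.93 and was below the floor on all 4 arrays.

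Of the 17 genes for ATP reception and clearance, 10 were measured between the control arrays, with 5 higher in CL1-5 and 1 lower, beside 12.6% and 13.2% of all genes. The dim side was below the filter for 3 of those 5 (NT5E, P2RY2 and P2RX1) and for the 1 lower gene (ADORA1), so these entered the count only through their brighter array, and nothing is read from the count for the list. After the knockdown 0 of 10 measured genes were higher and 2 lower (median -0.28), beside 8.13% and 7.76% of all genes. With HA-G9a 3 of 9 were higher, 2 of them from a vector signal below the filter, and 0 lower, beside 5.46% and 3.74%.

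The LRRC8 genes encode volume-regulated anion channels related to pannexins in sequence, and all 5 were measured in each comparison. Between the lines 2 were higher in CL1-5 and 0 lower (median 0.92), beside 12.6% and 13.2% of all genes, too few genes to read against those shares. LRRC8A, the obligatory subunit, read 845 and 585 in CL1-5 and 317 and 491 in CL1-0, and LRRC8D 451 and 311 against 224 and 309. Their ratios were 1.43 and 1.03 between the lines, -0.95 and -0.96 after the knockdown, and 0.71 and 0.55 with HA-G9a. Only 1 of the 2 measured LRRC8A probe sets had the sign of its HA-G9a ratio. None of the 5 passed 2-fold within a line, where the medians were -0.87 after the knockdown and 0.29 with HA-G9a, beside 8.13% higher and 7.76% lower, and 5.46% and 3.74%, of all genes. The 5 CALHM genes on the array were below the filter by their brightest probe set on all 4 arrays.

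**Figure D4:**
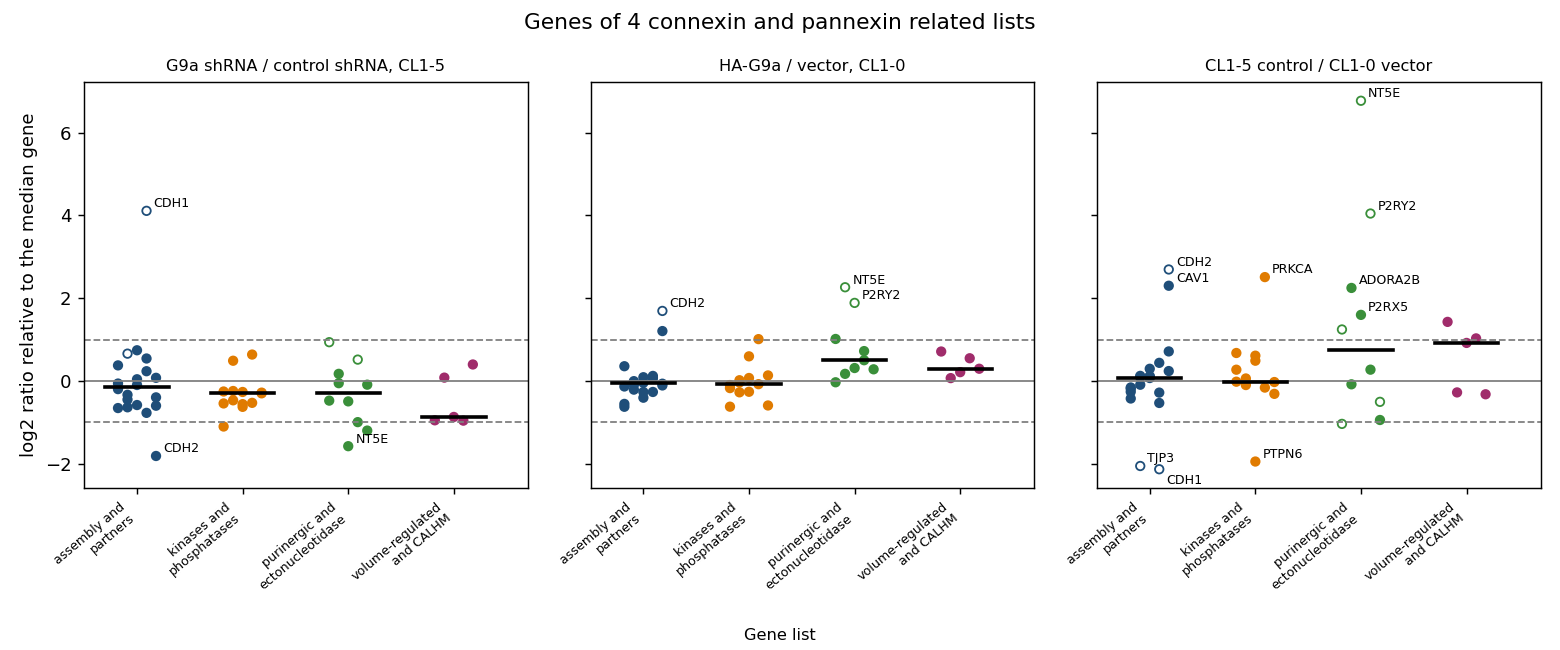
Log2 ratio relative to the median gene (vertical axis) of the measured genes of 4 lists (horizontal axis) in the 3 comparisons; each point is a gene by its brightest probe set, open where the dimmer array was below the filter so that its height is no measured size, black bars are list medians, dashed lines are 2-fold and genes past 1.5 are named. NT5E and P2RY2 are open points between the lines, ADORA2B at 2.25 and PRKCA at 2.51 filled ones, and the medians of the 2 lists of connexin partners and kinases lie between -0.30 and 0.08 in all 3 panels.

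The genes most like a member were sought for the 4 members that reached 84.2 on any array, among 8884 genes at that level, by the Euclidean distance between log2 signals of the 4 arrays after centring each gene. For GJA1 they were ALDH1A1 (distance 0.71), NEFH (1.55) and SOX2 (1.73), and no gene lay within 0.5. ALDH1A1, an aldehyde dehydrogenase gene, read 0.494 and 0.708 in CL1-5 and 2280.5 and 1570.1 in CL1-0. SOX2, a stem cell transcription factor gene, read 3.88 and 7.21 against 1618 and 1096. Distances to GJA1 rest in part on the floor. The other 3 members had common profiles, with 2138 genes within 0.5 of GJC1, 479 of PANX1 and 275 of GJA3. The nearest were ECE1, MGMT and NFYA to GJC1, ANGEL2, TXNDC12 and ROBO3 to PANX1, and SLC25A11, MLST8 and MCOLN2 to GJA3, at distances from 0.03 to 0.12.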

How the data were processed

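Per the submitters' processing notes, MAS5 made the deposited values; how it was run is not given in the sources used here. Each deposited value is a linear-scale intensity of 1 probe set on 1 array, and all were above 0, with medians of 11.3 to 14.9 and 2%-trimmed means of 85.1 to 121, so arrays were not at one level. MAS5 signals near background are noisy, and precision is limited by having 4 arrays. Of 54675 probe sets, 41097 had 1 gene symbol, 1801 several and 11777 none in the annotation table, and 41043 of the 41097 were updated by Entrez identifier (RefSeq, GRCh38.p14). Probe sets of several genes named none, and 58 of chromosome Y genes or of XIST were left out. A gene's value was its probe set with the highest mean signal. Signals were floored at 3.35, log2-transformed and compared in 3 pairs of arrays at a fixed threshold of 2-fold; with 1 array a group no test was run. The ratio step was tested on simulated data with known changes. The named genes were the 7 members, other family genes above the filter, up to 6 genes per list with the largest ratios, EHMT2, and the 3 nearest profiles; of the lists, genes with smaller ratios were named for their role after their values were seen (TJP1, P2RX7). P2RX4, ENPP1, P2RY6, ADA and the markers VWF, TEK, SFTPD and SLC34A2 were named after their values were seen. Members and lists were chosen with earlier results of these data known. Leukocyte, fibroblast and epithelial marker lists had 2 of 4, 3 of 5 and 5 of 6 genes reaching the filter on any array. Alternatives covered scaling, low values, the filter and the probe set rule. Python 3.11.15, pandas 2.3.3, NumPy 2.4.6 and matplotlib 3.10.9 were used.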

Additional observations from a re-analysis of the deposited data

How the results depend on the processing

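No alternative reversed a member past 2-fold. Of 114 recomputed ratios of single members, 106 moved by less than the yardstick and 8 by more. The knockdown count of 1 member lower (GJA3) fell to 0 with ratios as deposited, with a pseudocount of 16 and with the mean of all probe sets of a gene; with no filter it was again 1, but that gene was GJB2 (-1.58). The HA-G9a count of 0 lower became 1 (GJB2) with arrays scaled to one median or one trimmed mean. It was likewise 1 (GJB2) after quantile normalization and with no filter, with these GJB2 ratios between -2.02 and -1.88. The GJB2 ratios, that of -1.58 included, had a dim side raised to the floor and are no measured sizes. With the mean of all probe sets the HA-G9a count lower was also 1 (GJA3, -1.10). Between the lines the count higher in CL1-5 went from 0 to 1 with the mean of all probe sets (GJC1, 1.32), and the count lower from 1 to 2 with the perturbed in place of the control arrays (PANX1, -1.01, joining GJA1), an alternative chosen after seeing the data. The GJA3 ratio between the lines (0.21) turned to -0.83 with the mean of all probe sets and to -0.52 with the perturbed arrays. GJA1 ranged from -13.55 with no floor to -7.67 with the pseudocount. The cause was not tested. Over all genes, counts higher and lower differed from the main ones by over 1.5 times in at least 1 direction as follows. In the knockdown comparison they were 2198 and 618 as deposited, 679 and 756 with the floor at the median, 409 and 648 with the pseudocount, 410 and 437 under the stricter filter and 1675 and 1569 with no filter. With HA-G9a they were 332 and 204, 189 and 81, 124 and 63, and 1225 and 1095 under the last 4 of these, and 437 and 329 with the mean of all probe sets. Between the lines they were 1064 and 929 with the pseudocount and 851 and 786 under the stricter filter, against 1630 and 1704. No array could be left out and no paired analysis was possible because each group was 1 array and the labels carry no replicate numbers. Signals near the floor limit GJA4, GJB2, GJB5 and the CL1-5 side of GJA1.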
